A study of Mus musculus with 8 samples.

Results

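Of the 4398 positions at which chromatin immunoprecipitation and sequencing (ChIP-seq) placed Jmjd3 in stimulated mouse macrophages, 2362 (53.7%, 52.2 to 55.2) lay in a cluster of H3K4me3 before and after stimulation, had RNA polymerase II (Pol II) beside them before stimulation and at 2 h, and had no H3K27me3 beside them at either time. These 2362 positions, called members here, were chosen by those overlaps, so what the overlaps fix is given as a description. Each single position was widened by 250 bp on either side, so 2 of them overlapped when under 500 bp apart. Brackets after a share hold exact Clopper-Pearson 95% binomial intervals, which cover counting error only, since regions of a library are not replicates.

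The cells were primary macrophages grown from the bone marrow of female Fvb mice aged 6 to 8 weeks, either untreated (0 h) or given lipopolysaccharide and interferon gamma for 2 or 4 h. Untreated cells were mapped for H3K4me3, H3K27me3 and Pol II, cells at 2 h for Jmjd3 and Pol II, and cells at 4 h for H3K4me3, H3K27me3 and Pol II. Each of these 8 groups was 1 library, so no difference between times has a replicate check and no p-value is given. The labels give more than 10000000 uniquely mapped tags per library and no total for any of them, so depth is otherwise unknown. The growth text on all samples also mentions fetal livers from embryos of a mixed L129-C57BL/6 background, while each library is labelled as bone marrow-derived macrophages. The labels do not say how many animals went into a library. The lists hold positions on mm8 with no gene names; gene annotation of that build and macrophage marker genes were not analysed here, and "promoter" was not checked beyond the presence of H3K4me3.

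Jmjd3, also known as Kdm6b, is a demethylase induced in macrophages by inflammatory signals, and its known substrate is the repressive Polycomb mark H3K27me3. H3K4me3 is laid down around the start sites of genes that are active or ready to be transcribed. Pol II can be loaded at such start sites before a gene is strongly expressed, where it often pauses shortly after initiation.

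The selection ran as follows. H3K4me3 of both times overlapped 3568 Jmjd3 positions, of which 499 also had H3K27me3 at 0 or 4 h and 3069 did not. Among those 3069, the 2362 members had Pol II listed at both 0 and 2 h. Another 376 had it at 2 h alone, 100 had it at 0 h alone, and 231 had it at neither of these times. The limit of 500 bp passed through a continuum: 124 members lay 400 bp or more from the nearest 0 h Pol II position, and 45 of the 376 positions left out by the 0 h Pol II list lay under 600 bp from one. The member farthest inside was position 151022247 on chromosome 4 (Jmjd3 count 9), 497 bp from Pol II of 0 h. The nearest positions outside, 99487142 on chromosome 6 (16) and 58411586 on chromosome 13 (10), were 502 bp from it.

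Members lay on all 20 chromosomes with a Jmjd3 list, making up 37.0% to 62.2% of the Jmjd3 positions of each autosome. On chromosome X only 4 of 59 positions were members (6.78%, 1.88 to 16.5), and 69.5% (56.1 to 80.8) of the X positions lay in H3K4me3 of both times with H3K27me3, against 10.6% (9.66 to 11.5) on the autosomes. The 0 h Pol II list ends over 1 Mb before the other Pol II lists on 7 chromosomes. No member could lie in those ends, which held 114 Jmjd3 positions, 58 of them among the 376 with Pol II at 2 h and not 0 h. Without the ends, 4 of 40 X positions were members (10.0%, 2.79 to 23.7) and 55.6% (54.1 to 57.1) of the autosomal ones. The low share of chromosome 16, 37.0%, became 44.9% (36.9 to 53.0).

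The authors gave each listed position or cluster an overlap count, the number of tags piled up there, which is called its count here. Jmjd3 counts of members were low and close together, with a median of 11 (quartiles 9 and 13) and a range of 9 to 57. The lowest count in the list, 9, held 669 members (28.3%, 26.5 to 30.2), and 151 (6.39%, 5.44 to 7.46) had 20 or more. The 1206 other Jmjd3 positions in H3K4me3 of both times had the same median of 11 and a longer upper tail, with 16.8% (14.8 to 19.1) at 20 or more. That tail was mostly at positions with H3K27me3, where the share was 30.5% (26.4 to 34.7). At the 376 positions with Pol II at 2 h and not 0 h it was 9.84% (7.02 to 13.3), against the members' 6.39%, a difference that was not tested.

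Members lay within H3K4me3 clusters rather than at their borders, and the rule itself put them near Pol II. The rule put each member within 250 bp of a cluster of both times. All but 1 of the 2362 members were inside the 0 h cluster itself, and all but 2 inside the 4 h cluster. The median member was 1461 bp from the nearer cluster edge (quartiles 1090 and 1995) and at 0.491 of the way along the 0 h cluster, and 51.9% (49.9 to 54.0) lay in its central 1/3. Of the 1206 other Jmjd3 positions in H3K4me3 of both times, 56.0% (53.1 to 58.8) lay there, so this was not particular to members. The median distance to the nearest Pol II position was 87.5 bp at 0 h and 80 bp at 2 h, both capped by the rule, and 77.5 bp at 4 h, which the rule did not use. The 2 h and 4 h Pol II counts of members went together (Spearman's rho 0.871 over 2313 members). The 4 h distance is therefore no independent check. Within 100 bp of 0 h Pol II were 54.4% of members (52.4 to 56.4). The share was 58.2% (56.2 to 60.2) for 2 h Pol II, and for 4 h Pol II 58.6% (56.6 to 60.6). Of the 376 positions with Pol II at 2 h and not 0 h, 50.3% (45.1 to 55.4) were within 100 bp of 2 h Pol II. For 4 h Pol II it was 39.1% (34.1 to 44.2) of them.

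**Figure D1:**
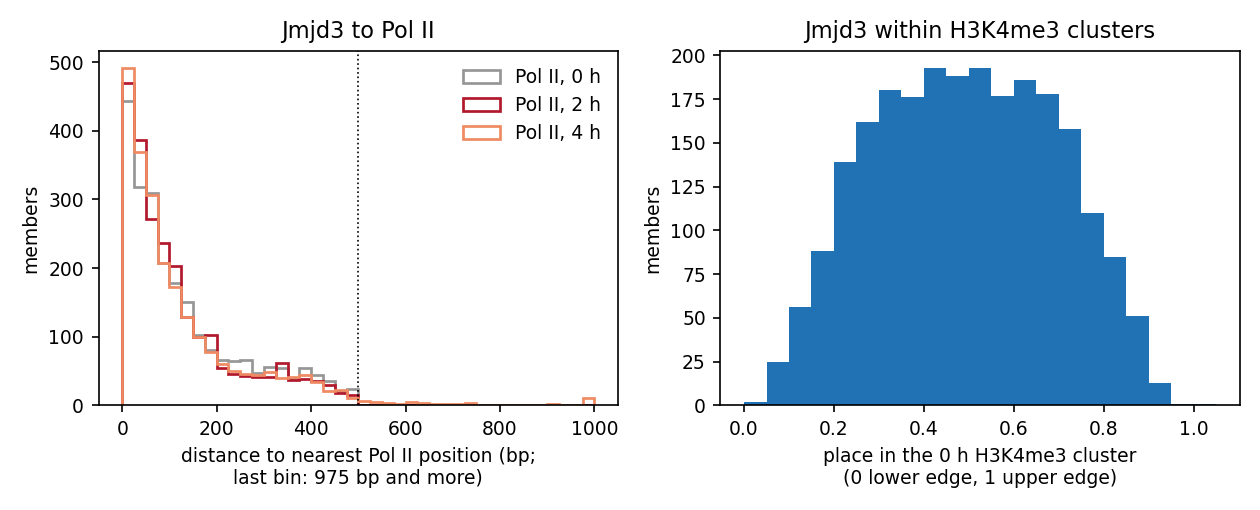
Left, distance in bp from each of the 2362 members to the nearest Pol II position at 0, 2 and 4 h (25 bp bins, y axis: members; the dotted line is the 500 bp limit used for 0 and 2 h). Right, place of each member in its 0 h H3K4me3 cluster from edge to edge. Distances pile up under 100 bp at each time, and places centre near 0.491.

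In clusters with more than 1 Pol II position, the tallest was often beside the member; the rule requires some Pol II there at 0 and 2 h, and no baseline for these shares was computed. At 2 h, 1057 of 1406 members in such clusters (75.2%, 72.8 to 77.4) had the cluster's tallest Pol II position in their window, and at 0 h 874 of 1257 (69.5%, 66.9 to 72.1). At 4 h it was 980 of 1339 (73.2%, 70.7 to 75.5).

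Pol II at 4 h was not used to choose members, and it was listed at 2313 of 2362 (97.9%, 97.3 to 98.5). Most clusters without Jmjd3 had it too, counted over the whole cluster rather than a member's window. Of H3K4me3 clusters with Pol II at 0 and 2 h and neither Jmjd3 nor H3K27me3, 169 of 7447 lacked it. Of the 0 h clusters that held a member, 4 of 2122 lacked it. At the 376 Jmjd3 positions with Pol II at 2 h and not 0 h it was listed at 296 (78.7%, 74.2 to 82.8). Of the 49 members without it, 39 were under 1000 bp from a 4 h Pol II position, and their median distance was 639 bp, just beyond the limit.

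Within the members' windows, Pol II counts were lowest at 0 h and highest at 2 h. The median was 53 (quartiles 32 and 83) at 0 h, 146 (100 and 200) at 2 h and, at the 2313 with a 4 h position, 119 (78 and 173) at 4 h. The 2 h count was above the 0 h count at 2262 members (95.8%, 94.9 to 96.5). The 2 h count was the highest of the 3 at 1704 members (72.1%, 70.3 to 73.9), the 4 h count at 581 (24.6%, 22.9 to 26.4) and the 0 h count at 47 (1.99%, 1.47 to 2.64). Counts of different libraries depend on depths that are unknown, and these shares were not computed for clusters without Jmjd3. Ratios of counts are read below against such clusters in the same libraries. There the 2 h to 0 h ratio had a lower quartile of 1.36 in matched clusters, so most of those also had more at 2 h.

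H3K4me3 clusters without Jmjd3 served as that comparison. The members lay in 2122 clusters of 0 h, called hosts: 1948 held 1 member and 174 held 2 to 5. The comparison was the 7447 clusters of 0 h that were listed at both times, overlapped Pol II at 0 and 2 h, and held neither Jmjd3 nor H3K27me3. Both sets thus had to contain Pol II and H3K4me3. By rule they differed in Jmjd3, in where Pol II had to lie (within 500 bp of Jmjd3 in hosts, anywhere in the cluster otherwise) and in H3K27me3, which was absent from whole comparison clusters but only from the member's window in hosts. Hosts had a median H3K4me3 count of 194 at 0 h (quartiles 162 and 219) against 178 (114 and 211), and 63.9% (61.8 to 65.9) exceeded the comparison median. All further values use comparison clusters weighted to the hosts' shares in 10 classes of H3K4me3 count at 0 h, which brings the comparison median to 194.

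At equal H3K4me3, hosts carried more Pol II, at 0 h already and by a wider margin after stimulation. The tallest Pol II count per host had a median of 57 at 0 h (quartiles 36 and 86) against 42 (27 and 61) in matched clusters, a ratio of 1.36, and 67.0% (64.9 to 69.0) of hosts exceeded the matched median. At 2 h it was 150.5 (104 and 202) against 81 (49 and 120), a ratio of 1.86, with 84.4% (82.8 to 86.0) of hosts above. At 4 h it was 122 (81 and 176) against 68 (41 and 101), a ratio of 1.79, with 81.3% (79.6 to 83.0) above. The quartile ranges overlapped at each time.

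The pattern was seen along the whole range of H3K4me3. Host medians of Pol II were above comparison medians in 10 of 10 classes at 0 h, with ratios from 1.08 to 1.74, and in 10 of 10 at 2 h, with ratios from 1.70 to 3.86. At 4 h this was so in 9 of 10, the exception being the lowest class (counts 11 to 13), with 7 hosts, a median of 25 against 28. Clusters without Pol II at 4 h were left out of these 4 h class medians. In the highest class (counts 221 to 361), with 500 hosts and 1402 comparison clusters, the 2 h medians were 167.5 and 96. The 4 lowest classes held only 7 to 27 hosts each.

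**Figure D2:**
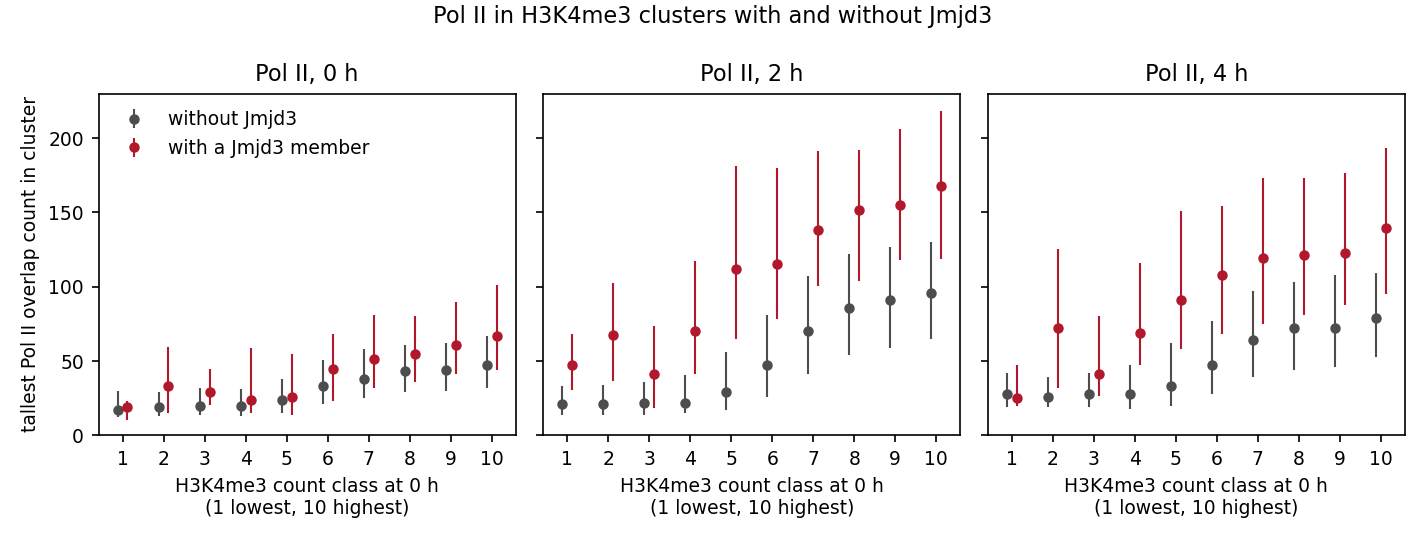
Tallest Pol II overlap count per H3K4me3 cluster (y axis) at 0, 2 and 4 h by class of the cluster's H3K4me3 count at 0 h (x axis), for hosts (red) and comparison clusters without Jmjd3 (grey). Points are medians and bars quartiles, with clusters without Pol II at 4 h left out of the 4 h panel. At 2 h the red medians are above the grey ones in 10 of 10 classes.

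Hosts were also wider and more often held several Pol II positions. Their median width was 4397.5 bp (quartiles 3391 and 5984) against 3614 bp (2875 and 4579) at matched H3K4me3 count, and 70.0% (68.0 to 71.9) exceeded the matched median. At 2 h, 55.1% (52.9 to 57.2) of hosts held at least 2 Pol II positions, against 24.9% of matched clusters. At 0 h the shares were 48.0% (45.9 to 50.2) and 30.1%, and at 4 h 52.0% (49.9 to 54.2) and 24.6%. With clusters matched on H3K4me3 count and width together, in 5 classes of each, the Pol II medians of matched clusters were 45 at 0 h and 86 at 2 h, still under the hosts' 57 and 150.5. The shares with at least 2 Pol II positions were not recomputed with width matched.

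The size of the Pol II difference between 0 and 2 h was larger in hosts. The ratio of the 2 h to the 0 h count had a median of 2.40 in hosts (quartiles 1.71 and 3.37) and 1.86 in matched clusters (1.36 and 2.48). It was at least 2-fold in 1369 of 2122 hosts (64.5%, 62.4 to 66.6), beside 44.2% of all 11472 H3K4me3 clusters of 0 h with Pol II at both times and 44.1% of matched clusters. In the members' own windows it was 1548 of 2362 (65.5%, 63.6 to 67.5). The difference of hosts from matched clusters was 20.4 percentage points (95% Wald interval 18.1 to 22.8). At most 1/2 of the 0 h count was left in 10 hosts (0.471%, 0.226 to 0.865), against 3.02% of all clusters and 2.03% of matched ones.

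At 4 h the shares were lower and the gap alike. The 4 hosts and 169 comparison clusters without Pol II at 4 h are not in these ratios. The 4 h count was at least 2-fold the 0 h count in 1058 of 2118 hosts (49.95%, 47.8 to 52.1), beside 31.6% of all clusters and 29.4% of matched ones, a difference of 20.6 points (18.2 to 23.0). It was at most 1/2 in 7 hosts (0.330%, 0.133 to 0.680), against 2.18% of all clusters. The part of depth in these ratios was not tested. With every 2 h to 0 h ratio divided by the median over all clusters, 1.85, the 2-fold share was 20.7% in hosts and 6.55% in matched clusters.

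Hosts began with more Pol II, so the comparison was repeated, as an alternative chosen after seeing the data, with clusters matched on H3K4me3 count and Pol II count at 0 h together. Matched clusters then had a median 2 h count of 99 against 150.5, and 77.2% (75.4 to 79.0) of hosts exceeded it. The 2-fold share was 64.5% in hosts and 37.2% in matched clusters, a difference of 27.3 points (24.9 to 29.8).

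**Figure D3:**
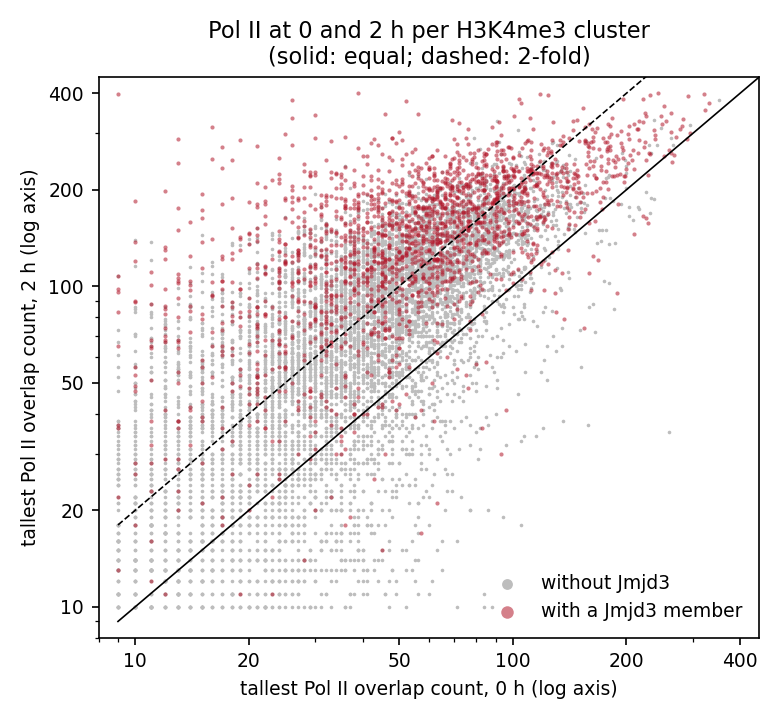
Tallest Pol II overlap count per H3K4me3 cluster at 2 h (y) against 0 h (x), both on log axes, for 2122 hosts (red) and 7447 comparison clusters (grey). The solid line marks equal counts and the dashed line a 2 h count 2-fold that at 0 h; 64.5% of hosts are on or above the dashed line.

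Read the other way, the share of clusters that held a member was higher at higher Pol II counts and, over a narrower range, at higher H3K4me3 counts. Over the 10 classes of H3K4me3 count it ran from 4.50% at counts 14 to 18 to 28.5% at 195 to 220. Hosts and comparison clusters together were divided into 10 classes by tallest Pol II count at 2 h. In the lowest (10 to 21) 1.94% (1.17 to 3.01) were hosts, and in the highest (184 to 402) 73.8% (70.9 to 76.6). By Pol II at 0 h the shares ran from 9.93% (8.21 to 11.9) at counts 9 to 16 up to 49.4% (46.1 to 52.6) at 92 to 351. At Pol II counts of 135 to 402 at 2 h, the host share was 50.3% (42.8 to 57.7), 53.6% (49.5 to 57.6), 52.0% (48.3 to 55.7) and 52.0% (48.6 to 55.5) from the lowest to the highest of 4 classes of H3K4me3 count, with overlapping intervals. At Pol II counts of 10 to 44 it was 2.99% (2.18 to 3.99), 7.04% (4.92 to 9.70), 8.14% (5.28 to 11.9) and 2.65% (0.864 to 6.07). Clusters whose Jmjd3 positions were all outside the rule are in neither set. Since the rule asks for Pol II beside the Jmjd3 of hosts, the rise with Pol II is not independent of it. How much of the rise the rule sets was not tested.

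**Figure D4:**
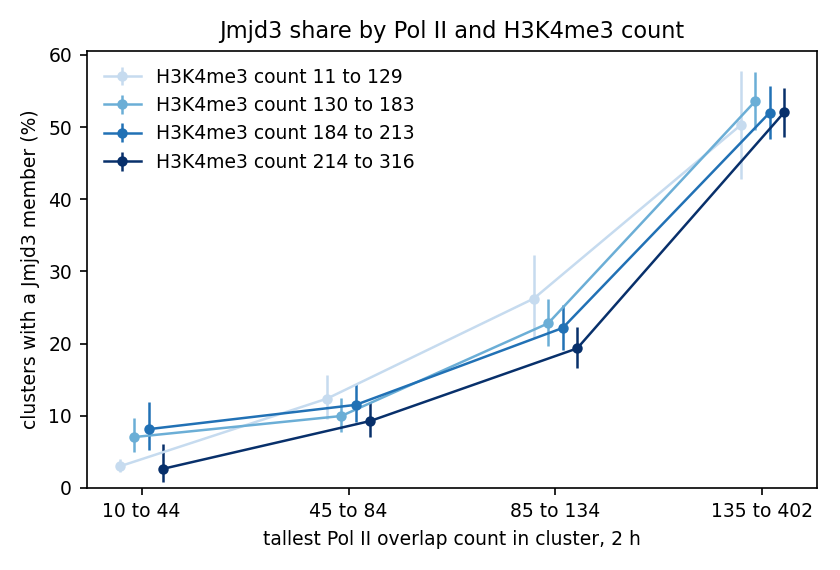
Percentage of clusters holding a member (y axis; hosts out of hosts plus comparison clusters) by tallest Pol II overlap count at 2 h (x axis), drawn separately for 4 classes of H3K4me3 count at 0 h. Bars are exact 95% intervals; the 4 lines climb together to 50.3% to 53.6% in the class of 135 to 402.

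Among the members themselves, a taller Jmjd3 position went with more Pol II at 2 and 4 h, and with a similar median but a higher upper quartile at 0 h. From the 669 members of Jmjd3 count 9 to the 151 of count 20 to 57, the median Pol II count at 2 h went from 116 (quartiles 77 and 156) to 254 (212.5 and 311.5), and at 4 h from 96 to 235. At 0 h the medians of the 6 Jmjd3 classes were between 50 and 63.5, and the class of 20 to 57 had 54, while the upper quartile went from 74 at count 9 to 124 at 20 to 57. The share of members with a 2 h Pol II count at least 2-fold that of 0 h was 56.7% at Jmjd3 count 9, 70.7% at 11 to 12 and 74.2% at 20 to 57. H3K4me3 counts at 0 h did not order the classes in this way, with medians from 190 to 202. The H3K4me3 clusters were wider at taller Jmjd3, with a median of 4160 bp at count 9 and 5731 bp at 20 to 57.

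Across the 2362 members, Spearman's rho between Jmjd3 and Pol II counts was 0.456 at 2 h and 0.0963 at 0 h, and 0.391 at 4 h over 2313 members (Pearson's r 0.507, 0.183 and 0.462). Between Jmjd3 and H3K4me3 counts at 0 h it was 0.0420 (r 0.0227). With the H3K4me3 count at 4 h rho was 0.111, and with the width of the 0 h cluster 0.177, both above the 0.0963 with Pol II at 0 h. These describe sites, which are not independent, and members of 1 cluster share its H3K4me3 count. The Jmjd3 and the 2 h Pol II libraries come from cells of the same treatment time, and the series has no Jmjd3 library of untreated cells among the files analysed here.

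**Figure D5:**
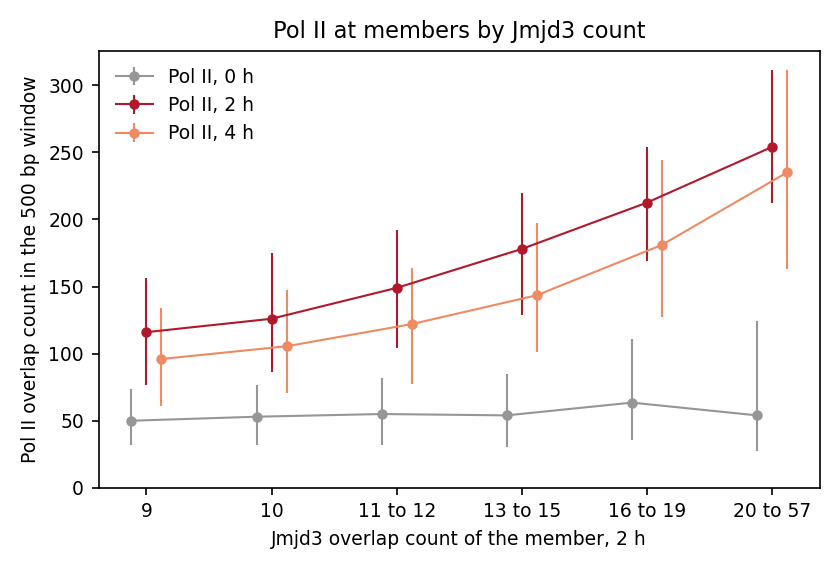
Pol II overlap count in the 500 bp window of members (y axis) at 0, 2 and 4 h by the member's Jmjd3 overlap count (x axis). Points are medians and bars quartiles; the 2 h medians go from 116 to 254 while those of 0 h stay between 50 and 63.5.

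H3K4me3 was much alike at both times, with a small shift upwards at hosts. At matched 0 h count, hosts had a median 4 h count of 203 (quartiles 171 and 228) against 197 (162 and 224), and 55.8% (53.7 to 58.0) exceeded the matched median. The 4 h count was above the 0 h count in 62.5% (60.4 to 64.6) of hosts and 52.4% of matched clusters, a difference of 10.2 points (7.78 to 12.6). Among members this share went with the Pol II ratio: it was 70.0% (65.8 to 74.0) of the 504 members whose 2 h Pol II count was at least 4-fold that of 0 h. It was 66.4% (63.4 to 69.2) at 2-fold to under 4-fold, 54.9% (51.2 to 58.6) at 1-fold to under 2-fold and 34.4% (24.9 to 45.0) of the 93 members with less Pol II at 2 h.

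H3K27me3 was distant from most members. The median member was 51292 bp from the nearest H3K27me3 position of 0 h and 47897 bp from that of 4 h, and 7.37% (6.35 to 8.50) and 7.71% (6.66 to 8.86) were within 5 kb, where the rule fixes only the first 500 bp. For all Jmjd3 positions the medians were 40608 and 38076 bp. Hosts had medians of 49.9 kb at 0 h and 45.5 kb at 4 h, against 42.2 and 38.0 kb in matched clusters. A long distance was thus not particular to members. For clusters the comparison depended on the definition. Of all 2122 hosts 12.6% (11.2 to 14.1) had H3K27me3 of either time within 5 kb, against 10.5% of matched clusters, a difference of 2.16 points (0.558 to 3.76). That count includes 123 hosts with H3K27me3 inside the cluster, away from the member, which comparison clusters could not have. Without those hosts the shares were 7.25% and 10.5%, and the difference turned to -3.20 points (-4.56 to -1.84).

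The 10 members with the tallest Jmjd3 are described by their Pol II at 0 h, an order chosen after their values were seen. In 5 of them the 0 h count was below the members' median of 53 and the 2 h count was at least 6-fold higher. Position 27042203 on chromosome 12 (Jmjd3 count 45) had Pol II counts of 9, 398 and 341 at 0, 2 and 4 h and H3K4me3 counts of 58 and 187 at 0 and 4 h. Position 27055797 on the same chromosome (47), in another host, had Pol II counts of 26, 382 and 327 and H3K4me3 counts of 166 and 249. Position 117785160 on chromosome 11 (43) had 52, 367 and 294, with H3K4me3 at 161 and 243. The other two were 28355832 on chromosome 2 (39), with 42, 280 and 225, and 33816920 on chromosome 10 (39), with 17, 233 and 188. Their H3K4me3 counts at 0 and 4 h were 172 and 237 on chromosome 2, and 182 and 206 on chromosome 10. In all 5 the H3K4me3 count was higher at 4 h, at 27042203 by over 3-fold.

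In 4 others Pol II was above the members' median in untreated cells already. Position 10049851 on chromosome 19 (Jmjd3 count 44) had Pol II counts of 282, 393 and 396 at 0, 2 and 4 h, with H3K4me3 at 240 and 227. Position 143171656 on chromosome 5 (39) had 321, 398 and 401, and 125679599 on the same chromosome (39) had 252, 365 and 379. The fourth, 56410588 on chromosome 12 (46), had 124, 396 and 361, with H3K4me3 at 240 and 258. The highest counts anywhere in the Pol II lists were 351 for 0 h, 402 for 2 h and 401 for 4 h. In the 0 h and 4 h lists they were 397 and 401 for H3K27me3 and 361 and 365 for H3K4me3, while the Jmjd3 list reached 96. Whether the count has an upper limit near the highest Pol II and histone values was not tested. Such a limit would make ratios at the tallest positions too small.

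The tallest member of all, position 3151521 on chromosome 6 (Jmjd3 count 57), had a 0 h count just under the median and a smaller ratio, with Pol II at 51, 94 and 76 and H3K4me3 at 70 and 69, in a narrow cluster of 1327 bp. H3K27me3 lay 0.590 kb from it at 0 h and 0.608 kb at 4 h, just outside the limit. The nearest Pol II lay 468, 465 and 458 bp from it at 0, 2 and 4 h, just inside the limit of 500 bp. Another host stood apart by its density. The widest, from 3027927 to 3049163 on chromosome 11, held 20 Jmjd3 positions of which 1 was a member, with 17, 20 and 19 Pol II positions at 0, 2 and 4 h and H3K4me3 counts of 43 and 46.

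The largest ratios of Pol II at 2 h to 0 h rested on counts near the lowest listed at 0 h, which was 9. Position 27042203 on chromosome 12 had a ratio of 44.2. It was followed by 117781685 on chromosome 11 (counts of 11 and 377, ratio 34.3), in the same cluster as the chromosome 11 position above, and by 115184482 on chromosome 5 (10 and 290, ratio 29.0). H3K4me3 at the chromosome 5 position was 73 at 0 h and 165 at 4 h, and H3K27me3 lay 0.933 kb from it at 0 h and 0.922 kb at 4 h. Tall Pol II did not need a tall H3K4me3 cluster: position 101941534 on chromosome 14 (Jmjd3 count 20) had Pol II counts of 24, 400 and 375 in a cluster with an H3K4me3 count of 16 at both times.

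Few members had clearly less Pol II at 2 h. In the windows, 11 of 2362 had at most 1/2 of the 0 h count (0.466%, 0.233 to 0.832). The 5 smallest ratios were all at Jmjd3 counts of 9 or 10, which 669 and 459 of all 2362 members had. Position 98991513 on chromosome 9 had Pol II counts of 63, 16 and 27 at 0, 2 and 4 h, and 79925972 on chromosome 15 had 57, 17 and 43. At both, the 4 h count lay between the other two. Their H3K4me3 counts at 0 h were 16 and 27, but the other 3 of the 5 had 173, 172 and 187, and the 93 members with less Pol II at 2 h had a median of 188, near the 195 of all members.

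The most members in 1 host was 5, in 3 hosts on chromosome 11 (119205115 to 119213378), chromosome 17 (34801321 to 34811403) and chromosome 19 (5837702 to 5850758). These 3 hosts, of 174 with several members, had tallest Pol II counts at 0, 2 and 4 h of 88, 313 and 336 on chromosome 11, 242, 402 and 392 on chromosome 17, and 331, 373 and 393 on chromosome 19. All 3 were above the host medians of 57, 150.5 and 122. Sharing a cluster did not always go with tall Pol II at 2 h. The host with 2 members at 73906520 to 73926379 on chromosome 14 had 189, 95 and 153, below the host median at 2 h alone. H3K4me3 at the chromosome 17 host was 268 at 0 h and 140 at 4 h, the opposite direction to its Pol II, and at the chromosome 11 host 206 and 252. Hosts also held 331 Jmjd3 positions that were not members, 305 of them without Pol II in their window at 0 or 2 h and 56 with H3K27me3 in it.

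The host with the most H3K4me3 at 0 h, 72016803 to 72024011 on chromosome 8, had counts of 293 and 296 at 0 and 4 h, a Jmjd3 count of 11 and tallest Pol II counts of 113, 225 and 202. A tall H3K4me3 cluster thus did not go with a tall Jmjd3 position there. At 68660599 to 68665707 on chromosome 2, the next in order (288 and 281), the tallest Jmjd3 count was 24 and Pol II was at 48, 290 and 251.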

How the data were processed

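The deposited lists, 1 per library, hold a position or cluster and a whole-number overlap count, a signal for which neither the file headers nor the labels record any scaling by the authors. Jmjd3, H3K27me3 and Pol II entries are single positions and H3K4me3 entries are clusters, per the file headers. Positions are on mm8, the build named in the submitters' processing notes. Which aligner, caller, cut-off or control was used is not given in the sources used.

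Overlap meant sharing at least 1 bp, with 250 bp added to each side of single positions. In a cluster the tallest Pol II count was used. A cluster without Pol II at 4 h counted as 0 in the medians over all hosts or matched clusters and in the classes of Pol II count. Such clusters were left out of the medians per H3K4me3 class and of the 4 h to 0 h ratios. Comparison clusters were weighted to the hosts' shares in 10 classes bounded by deciles of the 0 h H3K4me3 counts. No test between conditions was possible with 1 library per group. Regions were named by position, by order of Jmjd3 count, Pol II count, Pol II ratio, H3K4me3 count and width; the hosts with most members were named after their values were seen. The members and comparisons were chosen with earlier results of these data known. Alternatives changed the window, the classes, the comparison set, the hosts and the fold. Scripts ran in Python 3.11.15 with scipy 1.17.1, pandas 2.3.3 and numpy 2.4.6, and figures were drawn with matplotlib 3.10.9. The overlap and weighting code was tested on simulated lists, and the 7 overlaps with Jmjd3 equalled those of bedtools 2.31.1.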

Additional observations from a re-analysis of the deposited data

How the results depend on the processing

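Of 84 recomputed values, 55 stayed within the interval of the reported value (for the number of members, within 1.5 times it), 27 moved outside and 2 reversed; in 67 of 69 the hosts stayed above the comparison. Shares here are of hosts above the matched median unless named. Both reversals concern H3K27me3 within 5 kb: -3.20 points without the hosts that hold H3K27me3, and -10.8 against all clusters without Jmjd3, which may hold it. It was 0.111 with 500 bp to each side. Against all clusters H3K4me3 at 0 h gave 94.2%, and Pol II gave 71.4% at 0 h, 86.6% at 2 h and 84.3% at 4 h. With 100 bp to each side Pol II gave 70.3%, 86.3% and 84.1%, and with width matched too, 62.9%, 82.4% and 79.5%. Summed Pol II counts gave 69.3% at 0 h and 83.3% at 4 h. With Pol II at 0 h matched too, an alternative added after seeing the data, Pol II gave 77.2% at 2 h and 71.9% at 4 h, and the 2-fold difference was 27.3 points. That difference was 15.1 points at 1.5-fold and 14.1 with ratios divided by their median. Without Jmjd3 positions of count 9 the width share was 72.9%, Pol II 88.0% and 84.5% at 2 and 4 h, and the 2-fold difference 23.1 points. Pol II at 4 h was listed at 96.2% and 99.5% of members with 100 and 500 bp to each side, 98.5% without Jmjd3 count 9 and 96.8% where only 4 h positions above their median count were used. With lists cut above their medians, members numbered 1132. The cause of these shifts was not tested. No paired analysis was possible because each group is 1 library. Depth per library is unknown, and positions under each list's lowest count are not seen.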
